A study of Mus musculus with 9 samples.

Results

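The 43 genes described here drive and mark cell division. They were taken by name from the gene probes of 9 single-colour Agilent arrays of mouse liver, counting older symbols such as Cdc2a for Cdk1, and all 43 were found, on 68 of 41174 gene probes. They fall into 11 genes of DNA synthesis and its licensing (Mcm2 to Mcm7, Pcna, Rrm1, Rrm2, Tk1 and E2f1), 23 genes of mitosis, and 9 others that hold the G1/S cyclins, cyclin A2 and regulators. The livers came from male C57BL/6 mice aged 3 months: 3 arrays hold untreated wild-type mice, 3 the AAV-GFP control and 3 AAV-hGRβ, all from the liver lobe labelled A. AAV is adeno-associated virus, here carrying either green fluorescent protein, the control for the vector, or hGRβ, the human glucocorticoid receptor in its β form, a splice variant that differs from the α form at the hormone-binding end. The groups ask how this receptor form, or the vector with GFP, changes gene expression in the liver. Dose, promoter and time since delivery are not given in the sources used here, nor is it said that the replicates are separate animals, so p-values measure the spread between these samples, which may be technical. As a check on the tissue, the summed level of 9 hepatocyte markers (linear intensity over the array's 75th percentile, added up over the genes) lay between 2855 and 4776 on every array.

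Most hepatocytes of an adult liver rest outside the cell cycle, and they return to it after injury or loss of tissue. Before S phase, origins are licensed by loading the Mcm helicase with the help of Cdc6 and Cdt1, and the E2F factors raise the genes for DNA synthesis. Later, in G2 and mitosis, a second wave of genes for the spindle, the kinetochore, the cyclin B kinase and the anaphase-promoting complex follows, many of them held down in resting cells by the DREAM complex and raised by B-Myb and Foxm1. Lymphocytes, Kupffer cells and other cells of the liver also divide and use the same genes.

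Promoters of the mitotic wave are known for CHR elements and CCAAT boxes and those of the S-phase wave for E2F elements, and the windows of 10 members that the results turn on are shown, 5 of each class, chosen with their letters known. RefSeq promoter windows on GRCm38.p6 (250 bases before to 50 after the annotated start) were matched by symbol for 35 of the 43 genes. No window was used for Mcm4, Aurkb, Kif20a, Tpx2, Ccna2, Ccne2, Ccnd1 and Foxm1. In each sequence below, the 250 bases before the start are given 5′ to 3′ on the gene's own strand, and capitals mark the elements searched, on both strands. These are the CHR element with the letters TTTGAA or TTTAAA, the box with the letters CCAAT, and the E2F element with the letters TTCCCGC or TTGGCGC. On the opposite strand the box reads ATTGG, and the run of capitals in Ccnb1 that joins an E2F element and a CCAAT box is an overlap of both. The first 5 are mitotic genes: Mki67 at chr7:135716380-135716629 (minus strand), Prc1 at chr7:80294226-80294475 (plus), Ccnb1 at chr13:100786487-100786736 (minus), Cdk1 at chr10:69352913-69353162 (minus) and Plk1 at chr7:122159185-122159434 (plus). The last 5 are genes of DNA synthesis: Mcm6 at chr1:128359706-128359955 (minus), Mcm5 at chr8:75109259-75109508 (plus), Rrm1 at chr7:102441445-102441694 (plus), Pcna at chr2:132253181-132253430 (minus) and Rrm2 at chr12:24708004-24708253 (plus).
Mki67: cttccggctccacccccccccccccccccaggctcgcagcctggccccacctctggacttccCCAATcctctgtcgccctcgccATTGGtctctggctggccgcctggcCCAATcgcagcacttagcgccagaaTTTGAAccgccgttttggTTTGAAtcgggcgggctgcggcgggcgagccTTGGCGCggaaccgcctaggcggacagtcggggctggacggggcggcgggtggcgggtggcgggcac
Prc1: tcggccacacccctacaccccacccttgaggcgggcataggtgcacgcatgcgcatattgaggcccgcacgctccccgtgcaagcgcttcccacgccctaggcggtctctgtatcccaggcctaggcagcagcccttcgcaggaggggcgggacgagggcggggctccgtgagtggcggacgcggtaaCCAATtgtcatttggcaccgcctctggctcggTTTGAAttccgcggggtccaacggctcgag
Ccnb1: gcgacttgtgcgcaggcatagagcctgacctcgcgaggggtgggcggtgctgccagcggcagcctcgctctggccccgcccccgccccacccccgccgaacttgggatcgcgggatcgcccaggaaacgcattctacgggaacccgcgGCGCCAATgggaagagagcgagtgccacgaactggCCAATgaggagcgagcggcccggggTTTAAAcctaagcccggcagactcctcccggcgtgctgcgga
Cdk1: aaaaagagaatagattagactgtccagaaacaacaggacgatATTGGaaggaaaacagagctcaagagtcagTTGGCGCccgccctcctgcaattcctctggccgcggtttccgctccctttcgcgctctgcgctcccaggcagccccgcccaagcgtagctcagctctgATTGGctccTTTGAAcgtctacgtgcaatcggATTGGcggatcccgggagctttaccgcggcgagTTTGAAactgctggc
Plk1: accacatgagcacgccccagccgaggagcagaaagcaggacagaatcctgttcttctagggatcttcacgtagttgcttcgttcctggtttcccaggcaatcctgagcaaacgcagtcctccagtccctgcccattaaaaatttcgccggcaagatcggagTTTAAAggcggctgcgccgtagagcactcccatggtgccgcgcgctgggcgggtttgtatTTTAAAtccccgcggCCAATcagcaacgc
Mcm6: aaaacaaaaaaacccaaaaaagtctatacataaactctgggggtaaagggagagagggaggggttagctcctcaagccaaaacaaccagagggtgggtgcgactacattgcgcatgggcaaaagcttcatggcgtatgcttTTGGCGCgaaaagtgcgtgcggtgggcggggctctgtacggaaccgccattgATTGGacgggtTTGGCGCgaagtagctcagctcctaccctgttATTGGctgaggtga
Mcm5: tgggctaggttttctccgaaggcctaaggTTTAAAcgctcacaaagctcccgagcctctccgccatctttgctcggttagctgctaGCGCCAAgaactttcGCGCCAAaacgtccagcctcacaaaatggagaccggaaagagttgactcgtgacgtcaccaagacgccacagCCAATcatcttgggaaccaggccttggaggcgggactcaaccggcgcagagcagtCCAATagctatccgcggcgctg
Rrm1: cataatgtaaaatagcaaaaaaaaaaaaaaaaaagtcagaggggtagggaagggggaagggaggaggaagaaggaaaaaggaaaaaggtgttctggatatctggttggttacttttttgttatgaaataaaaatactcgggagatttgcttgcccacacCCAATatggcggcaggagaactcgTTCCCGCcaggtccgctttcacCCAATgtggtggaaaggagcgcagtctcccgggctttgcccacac
Pcna: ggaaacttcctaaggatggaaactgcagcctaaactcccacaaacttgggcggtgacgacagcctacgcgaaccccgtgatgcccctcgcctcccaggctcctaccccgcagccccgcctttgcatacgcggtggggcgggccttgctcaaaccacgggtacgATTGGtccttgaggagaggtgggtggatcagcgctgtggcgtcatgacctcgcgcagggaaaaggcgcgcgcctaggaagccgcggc
Rrm2: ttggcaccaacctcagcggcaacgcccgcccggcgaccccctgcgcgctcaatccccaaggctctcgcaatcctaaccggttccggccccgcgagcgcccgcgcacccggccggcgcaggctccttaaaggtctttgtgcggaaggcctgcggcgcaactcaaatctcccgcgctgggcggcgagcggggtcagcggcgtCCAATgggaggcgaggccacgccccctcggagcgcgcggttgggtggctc

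Over the whole windows, 17 of the 20 mitotic genes matched (85.0%) held a CHR element, against 28.2% of 17492 protein-coding genes with a window of the same length. A CCAAT box was present in 17 of the 20 (85.0%), against 42.3%, and both elements together in 16 (80%), against 11.5%. Among the 10 genes of DNA synthesis matched, 4 held a CHR element (40.0%), 8 a CCAAT box (80%) and 5 an E2F element (50%). An E2F element was found in 3 of the 20 mitotic genes (15.0%) and in 9.94% of the protein-coding genes, and these 3 (Mki67, Ccnb1 and Cdk1) are all among the mitotic windows shown. Rrm2, the gene of DNA synthesis that was called against untreated livers, held a CCAAT box, a CHR element that begins at the annotated start, beyond the bases printed, and no E2F element. These are matches of letters and were not tested for binding. The members were split into the classes by their roles, not by these letters.

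Nearly all of the cell cycle genes lay higher in AAV-hGRβ livers than in AAV-GFP livers, and the mitotic genes differed most, save under the normexp background correction, which takes the local background off in another way. There the order of the class medians was reversed, at 0.17 for 22 mitotic genes, 0.46 for 8 others and 0.66 for the 11 genes of DNA synthesis, and 14 of the 41 members tested lay below AAV-GFP. Without any filter on dim probes, 42 of the 43 members had a mean above that of AAV-GFP and only Tk1 lay below it. The median log2 difference was 1.76 over the 23 mitotic genes (3.38-fold), 1.00 over the 9 others and 0.49 over the 11 genes of DNA synthesis (1.41-fold), beside 0.13 over all 27656 genes. Each value is a log2 intensity minus the 75th percentile of its array, and levels of different probes are not comparable. To be tested, a gene needed a probe that stood well above background on each of the 3 arrays of some group, which 41 members had and Ttk and Cdc6 had not. Of the 41, 34 passed through a control group and 7 through AAV-hGRβ alone (Bub1b, Bub1, Top2a, Aurkb, Tpx2, Ccne2 and Chek1), so that these 7 had to lie higher there. Kif11 is among the 34 only by another probe (0.37), which stands for it in the medians that follow. Its tested probe (1.13) passed through AAV-hGRβ alone. Over the 34 the medians were 1.76 for 17 mitotic genes and 0.49 for the 11 genes of DNA synthesis, beside 0.00024 over all genes that passed in this way.

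By limma with Benjamini-Hochberg adjustment over all 16792 genes tested, 6 of the 41 members were called higher in AAV-hGRβ than in AAV-GFP (Mki67, Prc1, Bub1b, Ccnb1, Kif20a and Ccna2) and none lower. Of all genes, 0.822% were called higher (138 genes) and 0.0774% lower (13 genes). With arrays scaled to their median in place of the 75th percentile the split over all genes was 77 higher and 18 lower, the median of all genes was -0.32, and 35 members lay above 0, 6 below it and none was called. The 3 AAV-hGRβ arrays lay above all 3 AAV-GFP arrays for 29 of the 41 members, against 9.44% of all genes, and below them for Tk1, against 6.46%. Bub1b among the 6 calls, and Bub1b, Bub1, Aurkb, Tpx2 and Ccne2 among these 29, passed the filter through AAV-hGRβ alone. They had to lie higher there, so these counts are no support for a direction. With a filter through a control group, chosen after seeing the data, 5 of the 6 stayed called. At an unadjusted p under 0.05, 29 members were higher and none lower, and 11.7% of all genes passed in either direction. The calls are close to the threshold. Of the 6, none remained without untreated replicate 3, untreated replicate 4, AAV-hGRβ replicate 1 or AAV-hGRβ replicate 3, 1 remained without AAV-GFP replicate 1 or AAV-hGRβ replicate 2, 3 without AAV-GFP replicate 2 or AAV-GFP replicate 3, and 4 without untreated replicate 2. Counting other members too, 3 were called without AAV-hGRβ replicate 2 and 11 without AAV-GFP replicate 2. With slide as a random block Bub1b alone was called, and under the normexp background correction 27 of the 41 members lay above 0 and none was called. The 14 below 0 there were Aurkb, Bub1, Bub1b, Ccnb1, Kif11, Kif23, Nusap1, Top2a, Tpx2, Ccne2, Chek1, Foxm1, E2f1 and Mcm2, between -0.69 (Chek1) and -0.076 (Ccnb1).

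**Figure D1:**
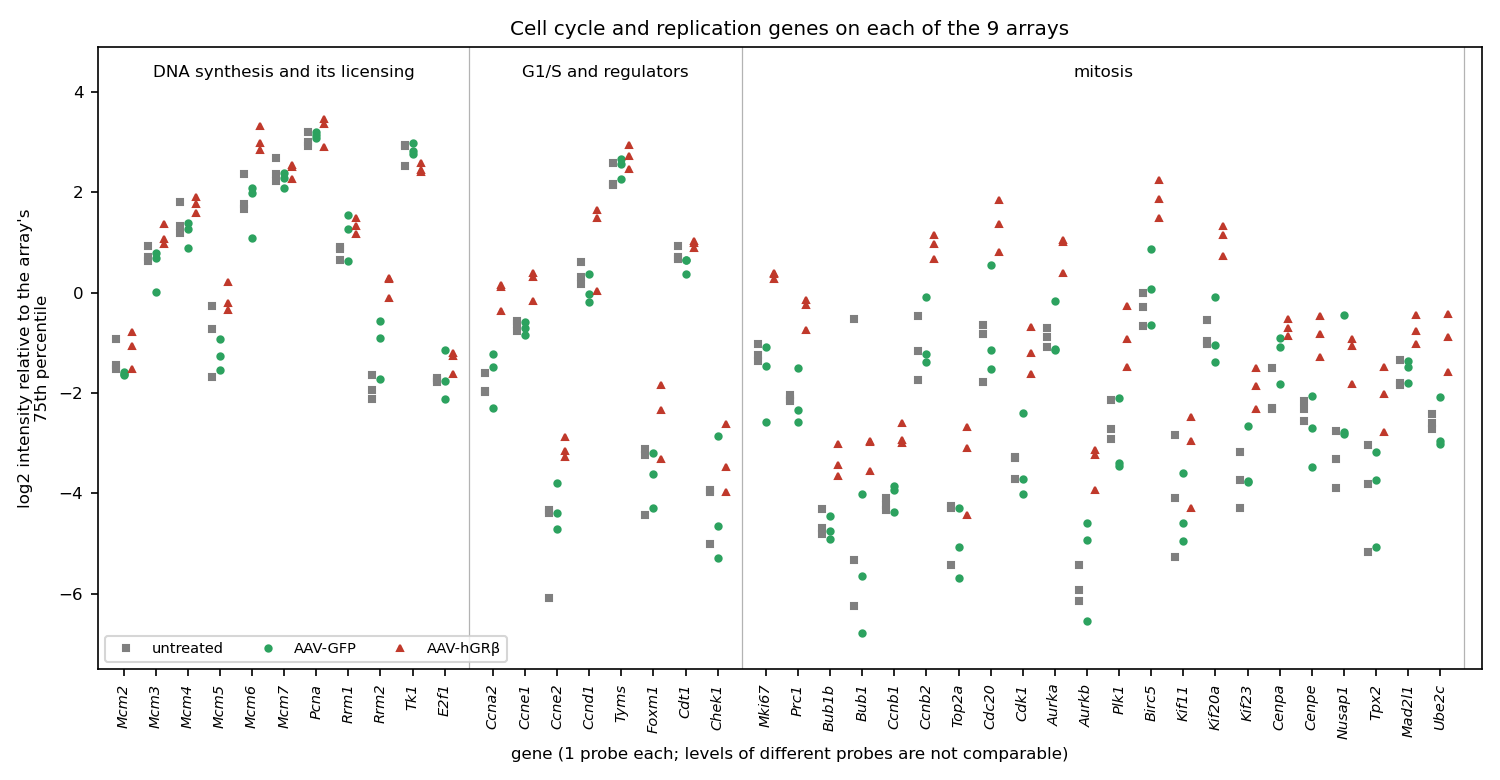
Log2 intensity relative to the array's 75th percentile (vertical axis) for the 41 tested genes (horizontal axis, 1 probe each), with 1 point per array: squares untreated, circles AAV-GFP, triangles AAV-hGRβ. For 29 genes all 3 triangles lie above all 3 circles, most of them mitotic genes at the right, while Tk1 shows the opposite order.

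Among the mitotic genes, Mki67, whose protein coats the chromosomes of dividing cells, was read by a probe at chr7:132094802-132094861 of mm7 (minus strand), the build of the array files. Its values were -1.36, -1.25 and -1.02 on the untreated arrays (replicates 2, 3 and 4, the order used throughout), -2.58, -1.08 and -1.46 on the AAV-GFP arrays (replicates 1, 2 and 3) and 0.38, 0.27 and 0.39 on the AAV-hGRβ arrays (replicates 1, 2 and 3). All 3 AAV-hGRβ arrays lay above the 6 controls, while AAV-GFP replicate 1 was the lowest of the 9. The log2 difference from AAV-GFP was 2.05 ± 0.34 (SE; adjusted p = 0.031), and 1.56 ± 0.34 (SE; adjusted p = 0.0468) from untreated. A further Mki67 probe gave 1.50 and 1.60. Under normexp the differences of Mki67 were 1.04 and 0.80.

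Cyclin B1 and Cdk1 form the kinase that starts mitosis. Ccnb1, with its probe at chr13:97884622-97884681 (mm7, minus strand), read -4.09, -4.23 and -4.32 in untreated livers, -4.38, -3.94 and -3.86 with AAV-GFP and -2.99, -2.93 and -2.60 with AAV-hGRβ, so that the AAV-hGRβ arrays stood apart from both control groups. The differences were 1.22 ± 0.20 (SE; adjusted p = 0.0299) and 1.37 ± 0.20 (SE; adjusted p = 0.0115). Of the untreated arrays, 2 were well above background for this probe, and under the normexp background correction its difference from AAV-GFP fell to -0.076. The other probes of Ccnb1 gave 1.72 and 3.11 against AAV-GFP, with 0 to 1 of 3 arrays of a control group well above background. Cdk1 lay at -3.28, -3.72 and -3.30 in untreated, -3.71, -2.39 and -4.00 in AAV-GFP and -1.20, -1.63 and -0.68 in AAV-hGRβ livers, with the highest control, AAV-GFP replicate 2, still below the lowest AAV-hGRβ array. It was higher by 2.26 ± 0.42 (SE; adjusted p = 0.0301) than in untreated livers. Against AAV-GFP the difference was 2.20 ± 0.42 (SE; adjusted p = 0.0538) and missed the threshold. Ccnb2, the second B-type cyclin, read -1.15, -1.73 and -0.46 in untreated, -1.37, -0.083 and -1.23 in AAV-GFP and 1.16, 0.67 and 0.98 in AAV-hGRβ livers. It was higher than in untreated livers by 2.05 ± 0.40 (SE; adjusted p = 0.0368), and AAV-GFP replicate 2 again stood nearest to the AAV-hGRβ arrays, with a difference between these groups of 1.83 ± 0.40 (SE; adjusted p = 0.0934). Under normexp Cdk1 shrank to 0.29 against AAV-GFP and 0.45 against untreated, and Ccnb2 to 1.35 and 1.44. A dimmer Cdk1 probe that did not pass the filter gave 0.84 and 0.67.

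Genes of the central spindle and of cytokinesis act late in mitosis. Prc1, which bundles the microtubules of the midzone (probe at chr7:76185003-76185055 of mm7, plus strand), lay at -2.15, -2.03 and -2.12 in untreated, -2.57, -1.49 and -2.34 in AAV-GFP and -0.14, -0.74 and -0.25 in AAV-hGRβ livers. No control array reached the AAV-hGRβ arrays, and the differences were 1.76 ± 0.29 (SE; adjusted p = 0.0303) from AAV-GFP and 1.73 ± 0.29 (SE; adjusted p = 0.0209) from untreated. The kinesin Kif20a, which carries the chromosomal passenger complex to the midzone, stood at -0.95, -1.03 and -0.55 in untreated, -1.39, -0.08 and -1.05 in AAV-GFP and 1.34, 0.74 and 1.14 in AAV-hGRβ livers. It was higher by 1.91 ± 0.33 (SE; adjusted p = 0.0399) and 1.92 ± 0.33 (SE; adjusted p = 0.0252), and its other probe gave 2.00 and 2.10. Kif23, a kinesin of the centralspindlin complex, read -3.16, -3.74 and -4.29 in untreated, -3.76, -3.77 and -2.66 in AAV-GFP and -1.51, -2.33 and -1.87 in AAV-hGRβ livers. It was called against untreated livers alone, by 1.83 ± 0.39 (SE; adjusted p = 0.0447), with 1.50 ± 0.39 (SE; adjusted p = 0.159) against AAV-GFP. Whether these 2 differences themselves differ was not tested. Its other probe gave 2.00 against AAV-GFP and 2.20 against untreated. Under normexp, in the same order, Prc1 shrank to 0.45 and 0.52, Kif20a to 1.36 and 1.34, and Kif23 to -0.23 and 0.019.

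The chromosomal passenger complex and the Aurora kinases correct the attachment of chromosomes to the spindle. Birc5 (survivin), a subunit of the complex, read -0.0044, -0.66 and -0.28 in untreated livers, -0.63, 0.87 and 0.075 with AAV-GFP and 1.86, 1.48 and 2.24 with AAV-hGRβ. The AAV-hGRβ arrays were the 3 highest, and Birc5 was higher than in untreated livers by 2.18 ± 0.38 (SE; adjusted p = 0.0243), with 1.76 ± 0.38 (SE; adjusted p = 0.0837) against AAV-GFP. Aurkb, the kinase of the complex, was well above background on 1 AAV-GFP array and on no untreated array. Its measured values were -5.44, -5.93 and -6.15 in untreated, -6.55, -4.58 and -4.92 in AAV-GFP and -3.23, -3.94 and -3.13 in AAV-hGRβ livers. Against untreated livers it was at least 2.47-fold higher (adjusted p = 0.0386; measured means -3.43 and -5.84), a bound that sets the AAV-hGRβ mean against the lowest signal well above background on each untreated array. Under normexp this difference turned to -0.46, and that from AAV-GFP from 1.92 to -0.67. Aurka, which matures the spindle poles, lay at -0.88, -1.08 and -0.69 in untreated, -1.12, -0.16 and -1.14 in AAV-GFP and 1.05, 0.40 and 1.01 in AAV-hGRβ livers, again with AAV-GFP replicate 2 as the highest control. Its difference was 1.71 ± 0.30 (SE; adjusted p = 0.0266) from untreated and 1.63 ± 0.30 (SE; adjusted p = 0.0501) from AAV-GFP, the latter on the edge of the threshold. Under normexp Aurka stood at 2.22 from untreated and 1.03 from AAV-GFP, and Birc5 at 1.93 and 1.70.

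Of the spindle checkpoint and the anaphase-promoting complex, Bub1b (BubR1), which holds back anaphase (probe at chr2:118381943-118382002 of mm7, plus strand), was called in both comparisons. Its values of -4.31, -4.69 and -4.80 in untreated and -4.92, -4.74 and -4.45 in AAV-GFP livers were dim, with 2 and 1 of the arrays well above background, against -3.02, -3.65 and -3.44 in AAV-hGRβ livers. The AAV-hGRβ arrays were the highest, by 1.33 ± 0.23 (SE; adjusted p = 0.0365) and 1.23 ± 0.23 (SE; adjusted p = 0.0303). Bub1b passed the filter through AAV-hGRβ alone, and under normexp both differences turned negative, -0.68 and -0.48. Ube2c, the ubiquitin-conjugating enzyme of the anaphase-promoting complex, stood at -2.72, -2.60 and -2.41 in untreated, -3.01, -2.08 and -2.95 in AAV-GFP and -0.42, -1.59 and -0.88 in AAV-hGRβ livers. AAV-hGRβ replicate 2 was the lowest of its group and yet above every control, and the difference was 1.61 ± 0.34 (SE; adjusted p = 0.0433) from untreated and 1.72 ± 0.34 (SE; adjusted p = 0.0644) from AAV-GFP. Cenpa, the histone H3 variant that marks centromeres, read -1.51, -2.31 and -2.30 in untreated, -1.82, -0.91 and -1.08 in AAV-GFP and -0.86, -0.51 and -0.71 in AAV-hGRβ livers. It was higher by 1.34 ± 0.30 (SE; adjusted p = 0.0495) than in untreated livers and by 0.58 ± 0.30 (SE; adjusted p = 0.523) than in AAV-GFP livers, where AAV-GFP replicate 2 reached -0.91 against -0.86 for the lowest AAV-hGRβ array. A second Cenpa probe that did not pass the filter gave 2.13 against untreated and 1.39 against AAV-GFP. Under normexp Ube2c shrank to 0.24 against untreated and 0.18 against AAV-GFP, and Cenpa to 0.48 and 0.14.

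Top2a, the topoisomerase that untangles sister chromatids, was dim in the controls and overlapped between groups. It lay at -4.29, -5.43 and -4.26 in untreated, -5.69, -5.06 and -4.29 in AAV-GFP and -2.68, -4.43 and -3.09 in AAV-hGRβ livers, where replicate 2 fell among the controls. The differences were 1.61 ± 0.53 (SE; adjusted p = 0.269) and 1.26 ± 0.53 (SE; adjusted p = 0.184), and -0.59 and -0.46 under normexp. The other Top2a probes, which did not pass the filter, gave 0.67 and 1.61 against AAV-GFP. The other 8 mitotic genes tested did not pass in either comparison. They are Bub1, Cdc20, Plk1, Kif11, Cenpe, Nusap1, Tpx2 and Mad2l1, with differences from AAV-GFP between 0.75 (Nusap1) and 2.31 (Bub1). Close to the threshold were Cenpe, a kinesin of the kinetochore, at 1.88 ± 0.35 (SE; adjusted p = 0.0538), the mitotic kinase Plk1 at 2.09 ± 0.43 (SE; adjusted p = 0.0751) and, against untreated livers, Cdc20, the activator of the anaphase-promoting complex, at 2.42 ± 0.55 (SE; adjusted p = 0.0508). Under normexp these were 0.41, 0.27 and 1.69, while Bub1 stood at -0.50, Kif11 at -0.62, Nusap1 at -0.47 and Tpx2 at -0.13 against AAV-GFP. The 3 probes of Kif11, the kinesin that pushes the spindle poles apart, disagreed, at 1.13, 0.37 and -0.020 against AAV-GFP and 0.82, 1.46 and -0.074 against untreated livers. The other Cenpe probes gave 0.62 and 0.78 against AAV-GFP, and the other Nusap1 probe 0.40 against AAV-GFP and 0.46 against untreated, these 3 without passing the filter. For 2 of the 8 a single control spot was far from its fellows. Bub1 read -0.52 in untreated replicate 3 and -5.33 and -6.25 in the others, and Nusap1 read -0.45 in AAV-GFP replicate 1 and -2.77 and -2.81 in the others. Ttk, not tested, was well above background on 1 AAV-hGRβ array and on no control array.

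Cyclin A2, which acts in both S phase and mitosis, was the member outside the mitotic class that was called in both comparisons. Ccna2 (probe at chr3:36375837-36375896 of mm7, minus strand) stood at -1.60, -1.97 and -1.98 in untreated, -2.30, -1.49 and -1.23 in AAV-GFP and 0.15, -0.37 and 0.11 in AAV-hGRβ livers, with no overlap. It was higher by 1.64 ± 0.29 (SE; adjusted p = 0.0428) and 1.81 ± 0.29 (SE; adjusted p = 0.0178), and by 0.73 and 0.85 under normexp. The E-type cyclins, which start S phase, did not pass: Ccne1 read -0.62, -0.56 and -0.76 in untreated, -0.70, -0.84 and -0.58 in AAV-GFP and -0.16, 0.31 and 0.40 in AAV-hGRβ livers, a difference of 0.89 ± 0.19 (SE; adjusted p = 0.084) from AAV-GFP and 0.82 ± 0.19 (SE; adjusted p = 0.053) from untreated, with no overlap. Ccne2 read -4.39, -6.09 and -4.34 in untreated, -4.39, -4.70 and -3.80 in AAV-GFP and -3.14, -3.27 and -2.87 in AAV-hGRβ livers, with differences of 1.20 ± 0.45 (SE; adjusted p = 0.335) and 1.84 ± 0.45 (SE; adjusted p = 0.0622), and -0.62 and -0.42 under normexp. Cyclin D1, the cyclin that answers growth factors, lay at 0.31, 0.62 and 0.18 in untreated, -0.019, 0.37 and -0.17 in AAV-GFP and 1.49, 0.033 and 1.65 in AAV-hGRβ livers. Ccnd1 was high on AAV-hGRβ replicates 1 and 3 and at the control level on replicate 2, so the groups overlapped, and its differences were 1.00 ± 0.40 (SE; adjusted p = 0.364) and 0.69 ± 0.40 (SE; adjusted p = 0.29).

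The genes of DNA synthesis were well above background on all 9 arrays, all 11 of them. None of the 11 was called against AAV-GFP, and the median log2 difference was 0.49. Among the subunits of the Mcm helicase, Mcm6 differed most (probe at chr1:128211735-128211794 of mm7, minus strand), at 1.76, 1.66 and 2.36 in untreated, 1.09, 2.08 and 1.99 in AAV-GFP and 2.84, 3.00 and 3.32 in AAV-hGRβ livers. Its AAV-hGRβ arrays lay above every control, by 1.33 ± 0.31 (SE; adjusted p = 0.109) and 1.12 ± 0.31 (SE; adjusted p = 0.0792). Mcm5 read -1.69, -0.73 and -0.27 in untreated, -1.26, -0.92 and -1.53 in AAV-GFP and -0.20, -0.34 and 0.21 in AAV-hGRβ livers. It was apart from AAV-GFP by 1.13 ± 0.35 (SE; adjusted p = 0.241) but overlapped with untreated livers, whose 3 arrays were spread widely, by 0.79 ± 0.35 (SE; adjusted p = 0.201).

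The other 4 subunits differed less from each control than Mcm6 did. Mcm3 stood at 0.71, 0.63 and 0.93 in untreated, 0.0078, 0.69 and 0.79 in AAV-GFP and 0.98, 1.08 and 1.36 in AAV-hGRβ livers, above both controls by 0.64 ± 0.23 (SE; adjusted p = 0.324) and 0.38 ± 0.23 (SE; adjusted p = 0.312). Mcm4 read 1.19, 1.33 and 1.80 in untreated, 0.89, 1.26 and 1.38 in AAV-GFP and 1.60, 1.76 and 1.90 in AAV-hGRβ livers, 0.57 ± 0.22 above AAV-GFP and overlapping with untreated livers (0.31 ± 0.22). For Mcm2 the values were -1.44, -1.53 and -0.92 in untreated, -1.62, -1.64 and -1.59 in AAV-GFP and -1.07, -1.51 and -0.78 in AAV-hGRβ livers: the AAV-GFP arrays were the 3 lowest, and the AAV-hGRβ arrays mixed with the untreated ones. Its differences were 0.49 ± 0.24 and 0.17 ± 0.24. Mcm7, at 2.37, 2.24 and 2.69 in untreated, 2.09, 2.39 and 2.28 in AAV-GFP and 2.51, 2.54 and 2.27 in AAV-hGRβ livers, overlapped in all groups and differed by 0.19 ± 0.18 and 0.01 ± 0.18. Adjusted p of these 4 genes lay between 0.312 (Mcm3 against untreated) and 0.977 (Mcm7 against untreated). Under normexp the differences of Mcm2 to Mcm7, in order, were -0.11, 0.83, 0.95, 0.52, 1.70 and 0.68 from AAV-GFP. From untreated they were -0.24, 0.55, 0.61, 0.27, 1.30 and 0.42.

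Pcna, the sliding clamp of the DNA polymerases, did not separate the groups: 3.20, 3.00 and 2.92 in untreated, 3.08, 3.20 and 3.15 in AAV-GFP and 2.90, 3.37 and 3.46 in AAV-hGRβ livers. Its differences were 0.10 ± 0.19 (SE; adjusted p = 0.902) and 0.20 ± 0.19 (SE; adjusted p = 0.493), and 0.72 and 0.66 under normexp. The 2 subunits of ribonucleotide reductase, which makes the deoxynucleotides, gave different results. Rrm2, the subunit that appears in S phase (probe at chr12:22550253-22550307 of mm7, plus strand), read -1.63, -1.94 and -2.11 in untreated, -1.72, -0.91 and -0.56 in AAV-GFP and -0.10, 0.28 and 0.28 in AAV-hGRβ livers. Of the 11 genes, it alone was called in any of the 3 comparisons, higher than in untreated livers by 2.05 ± 0.30 (SE; adjusted p = 0.012). Against AAV-GFP, whose own arrays lay 0.83 ± 0.30 above untreated, it was 1.22 ± 0.30 (SE; adjusted p = 0.128), and under normexp the differences were 0.97 from untreated and 0.66 from AAV-GFP. Rrm1, the constant large subunit, read 0.88, 0.66 and 0.90 in untreated, 0.63, 1.28 and 1.56 in AAV-GFP and 1.17, 1.48 and 1.33 in AAV-hGRβ livers. It overlapped with AAV-GFP (0.17 ± 0.24 apart) and lay above untreated by 0.52 ± 0.24 (SE; adjusted p = 0.215), and by 0.56 and 0.69 under normexp.

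Thymidine kinase, Tk1, which salvages thymidine for S phase, was the one member with a lower mean in AAV-hGRβ livers than in either control. Its values were 2.93, 2.94 and 2.53 in untreated, 2.83, 2.98 and 2.76 in AAV-GFP and 2.45, 2.40 and 2.59 in AAV-hGRβ livers, below all AAV-GFP arrays and overlapping with untreated ones. The differences of -0.38 ± 0.17 (SE; adjusted p = 0.453) and -0.32 ± 0.17 (SE; adjusted p = 0.264) did not pass, and under normexp they were 0.24 and 0.16. E2f1, the activating factor of the S-phase genes, read -1.74, -1.70 and -1.78 in untreated, -2.11, -1.76 and -1.14 in AAV-GFP and -1.26, -1.63 and -1.20 in AAV-hGRβ livers. It differed by 0.31 ± 0.25 (SE; adjusted p = 0.727) from AAV-GFP, whose highest array overlapped, and by 0.38 ± 0.25 (SE; adjusted p = 0.348) from untreated. Under normexp these differences of E2f1 were -0.12 and -0.046. Tyms, which makes thymidylate, stood at 2.59, 2.15 and 2.18 in untreated, 2.26, 2.67 and 2.57 in AAV-GFP and 2.47, 2.72 and 2.94 in AAV-hGRβ livers and overlapped in all groups, with 0.21 ± 0.21 and 0.41 ± 0.21. Its 3 probes gave 0.21, 0.13 and 0.11 against AAV-GFP and differed in sign against untreated livers, at 0.41, -0.30 and 0.35. Under normexp the differences of Tyms were 0.77 and 0.83.

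Of the licensing and checkpoint genes, Cdt1, which loads the helicase, read 0.67, 0.71 and 0.93 in untreated, 0.37, 0.65 and 0.66 in AAV-GFP and 0.89, 1.04 and 0.99 in AAV-hGRβ livers. It lay above AAV-GFP by 0.42 ± 0.16 (SE; adjusted p = 0.347) and overlapped with untreated livers, at 0.20 ± 0.16 (SE; adjusted p = 0.423). Its partner Cdc6 was not tested: its better probe was well above background on 2 AAV-hGRβ arrays, 1 AAV-GFP array and no untreated array. Foxm1, the factor that raises the mitotic genes, stood at -3.12, -4.43 and -3.24 in untreated, -4.29, -3.61 and -3.19 in AAV-GFP and -1.84, -3.31 and -2.34 in AAV-hGRβ livers. Replicate 2 of AAV-hGRβ fell among the controls, and the differences were 1.20 ± 0.48 (SE; adjusted p = 0.366) and 1.10 ± 0.48 (SE; adjusted p = 0.192), and -0.40 and -0.29 under normexp. Chek1, the kinase of the replication checkpoint, read -3.93, -5.01 and -3.97 in untreated, -5.30, -4.64 and -2.85 in AAV-GFP and -2.63, -3.96 and -3.47 in AAV-hGRβ livers, with a wide spread in AAV-GFP livers and differences of 0.91 ± 0.62 (SE; adjusted p = 0.655) and 0.95 ± 0.62 (SE; adjusted p = 0.341). Its second probe gave 1.29 and 0.51, and under normexp both differences were negative, -0.69 and -0.65.

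Against untreated livers, 15 of the 41 members were called higher in AAV-hGRβ livers and none lower, beside 2.5% of all genes called higher (420) and 0.78% called lower (131), 3.28% in all. Scaled to the array median, the split over all genes was 329 higher and 258 lower, and 11 members were called. The 15 are Rrm2, Ccna2 and 13 mitotic genes (Mki67, Prc1, Bub1b, Ccnb1, Ccnb2, Cdk1, Aurka, Aurkb, Birc5, Kif20a, Kif23, Cenpa and Ube2c). Arrays did not overlap, with AAV-hGRβ higher, for 27 members, against 14.7% of all genes. Bub1b and Aurkb among the 15, and Bub1b, Aurkb, Tpx2 and Ccne2 among the 27, passed the filter through AAV-hGRβ alone. They had to lie higher there, so these counts are no support for a direction. With a filter through a control group, chosen after seeing the data, 13 of the 15 stayed called. At an unadjusted p under 0.05, 26 members were higher and none lower, and 25.5% of all genes passed in either direction. The medians over all 43 members without a filter were 1.71 for the mitotic genes, 0.38 for DNA synthesis and 0.95 for the others, beside 0.22 over all genes. Both comparisons use the same 3 AAV-hGRβ arrays, so they are not independent. No member was called without untreated replicate 3, untreated replicate 4 or AAV-hGRβ replicate 3, 3 were called without AAV-hGRβ replicate 1 (2 of the 15 among them) and 10 without AAV-hGRβ replicate 2 (all among the 15). None was called with slide as a random block or under normexp, where 11 members lay below untreated livers.

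**Figure D2:**
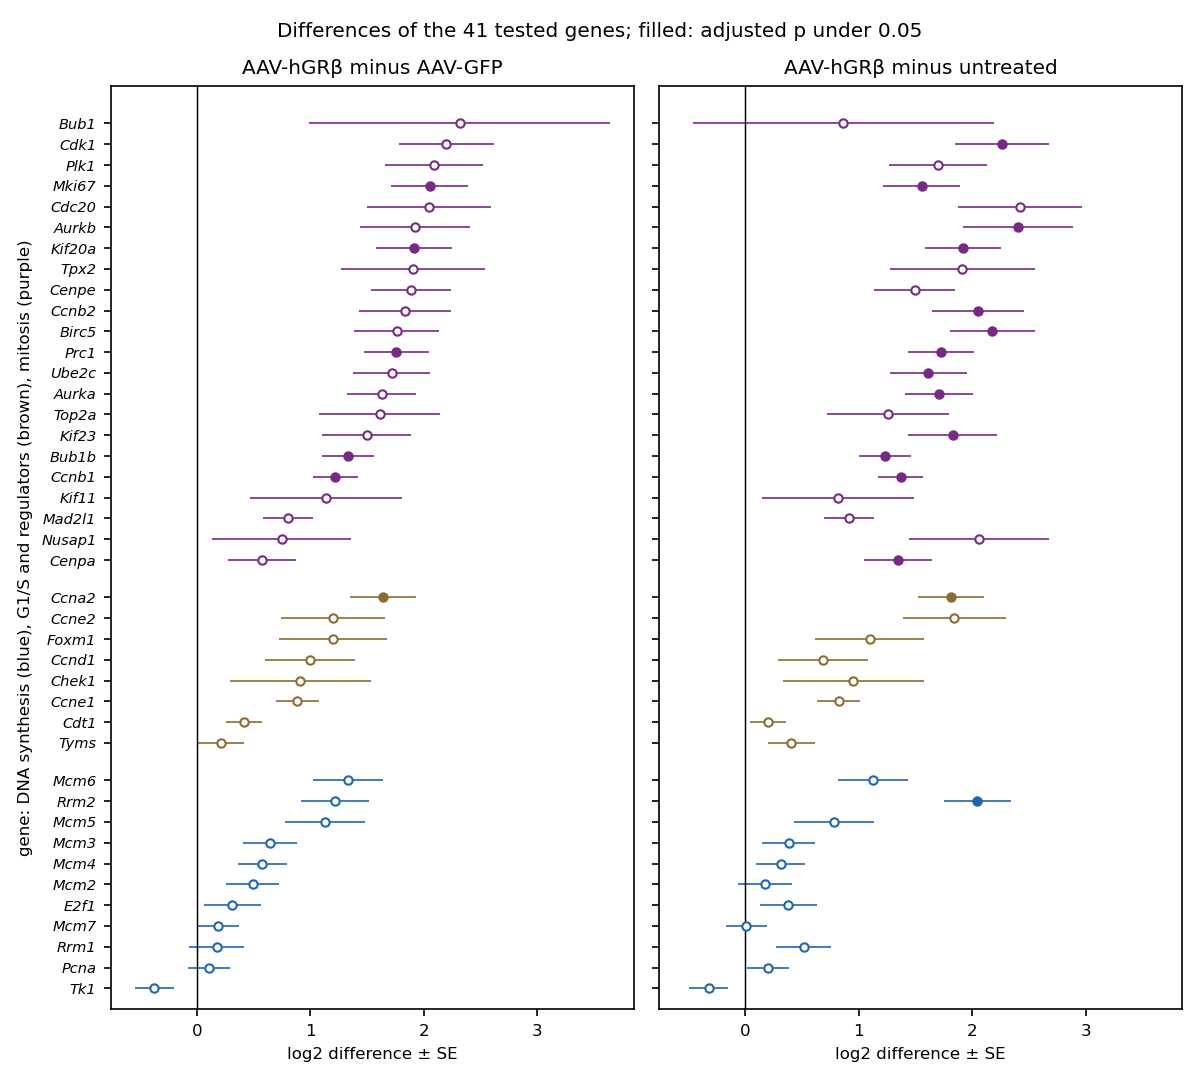
Log2 difference with its standard error (horizontal axis) for each of the 41 tested genes (vertical axis, by class), AAV-hGRβ minus AAV-GFP at left and minus untreated at right, with filled points for an adjusted p under 0.05. The mitotic genes (purple) lie between 0.58 and 2.31 at left, and the genes of DNA synthesis (blue) between -0.38 and 1.33, with 6 filled points at left and 15 at right.

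The comparison of AAV-GFP with untreated livers concerns the vector with GFP, without the receptor. Vector, delivery and GFP cannot be told apart in it. Between AAV-GFP and untreated livers, no member and no gene (0%) was called by limma, while 1648 genes had an unadjusted p under 0.05 (9.81%). Over all 43 members, 24 lay above 0 and 19 below, with a median of 0.041. At an unadjusted p under 0.05 the members were Rrm2, at 0.83 ± 0.30 (SE; adjusted p = 0.489), and Cenpa, at 0.77 ± 0.30 (SE; adjusted p = 0.489). No member had all AAV-GFP arrays above all untreated ones (5.68% of all genes did), and Mcm2 and Cdt1 had them below (9.21% of all genes). A p that misses the threshold does not show that the groups are alike: the standard errors of the members ran from 0.16 (Cdt1) to 1.33 (Bub1).

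The mitotic class stood further from both controls than the class of DNA synthesis. The median of the mitotic genes minus that of the genes of DNA synthesis was 1.27 against AAV-GFP, 1.32 against untreated and 0.21 between AAV-GFP and untreated livers. In the comparison with AAV-GFP, 20 of 23 mitotic genes lay more than 1 log2 unit higher and 3 of 11 genes of DNA synthesis did (Mcm5, Mcm6 and Rrm2), beside 11.0% of all genes. Within the scan days the mitotic and synthesis medians were 1.56 and 0.52 on day 1 (2 arrays a group) and 1.86 and 0.21 on day 2 (1 array a group). On day 1 each group lay on a slide of its own, so that slide and group cannot be told apart there, and over all genes the correlation within a slide was 0.46. It also stood in each fit without 1 array, between 1.09 and 1.63. It reversed to -0.49 under the normexp background correction, where the mitotic median was 0.17 and that of DNA synthesis 0.66, and it was 0.62 when extreme local backgrounds were replaced before that correction. No test was made of this difference between classes, since genes are not replicates.

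**Figure D3:**
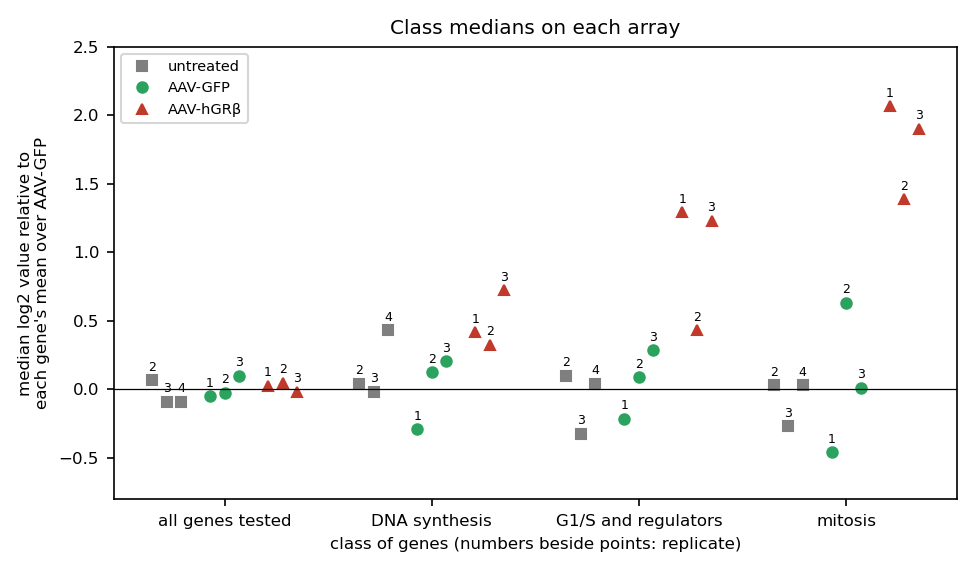
Median over the genes of a class (horizontal axis) of the log2 value relative to each gene's mean over AAV-GFP (vertical axis), with 1 point per array, its replicate number beside it, and all 16792 genes at left. In the mitotic class the AAV-hGRβ arrays lie at 2.07, 1.39 and 1.90 and the highest control at 0.63, while in DNA synthesis the lowest AAV-hGRβ array (0.33) lies below untreated replicate 4 (0.43).

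**Figure D4:**
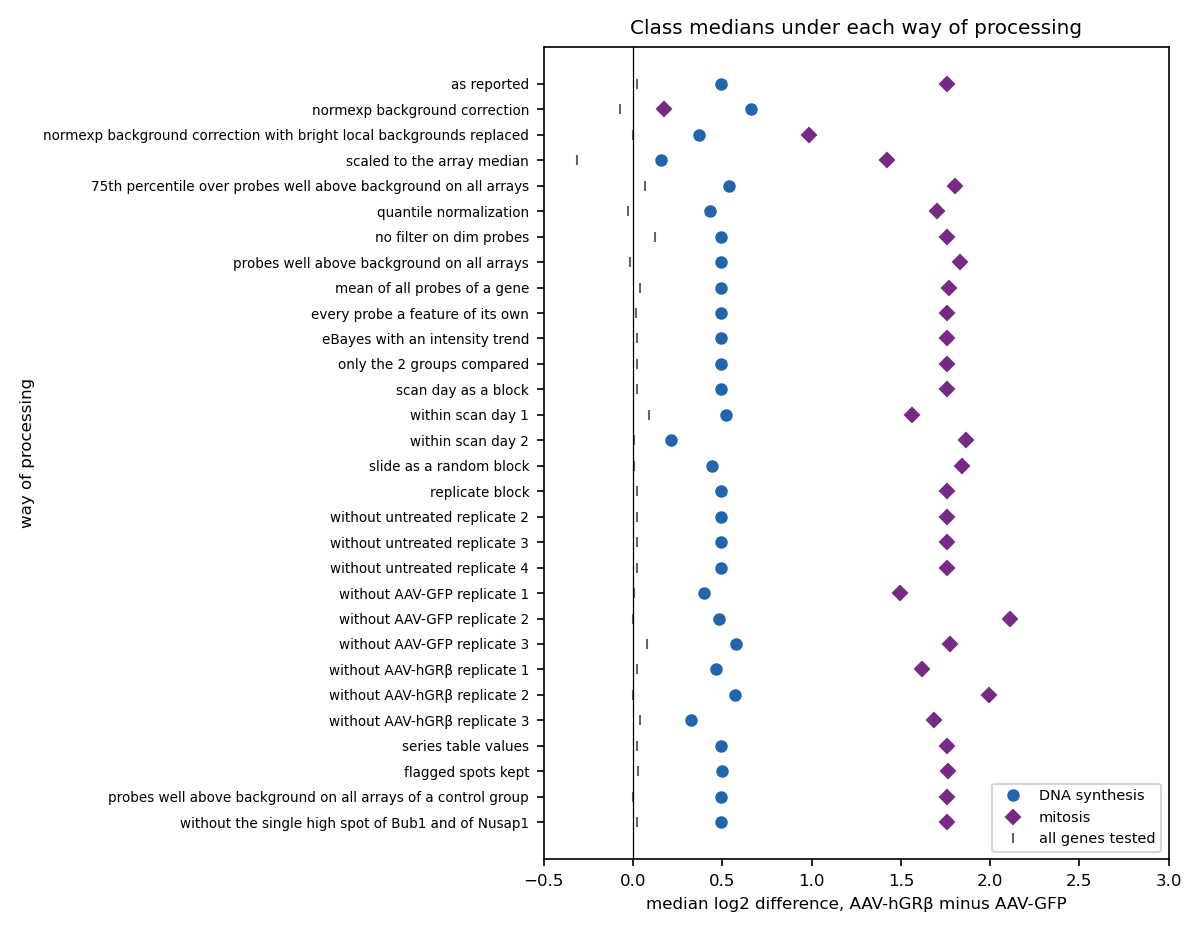
Median log2 difference, AAV-hGRβ minus AAV-GFP (horizontal axis), of the mitotic genes (diamonds), the genes of DNA synthesis (circles) and all genes tested (ticks), for each way of processing the arrays (vertical axis). Diamonds lie to the right of circles in every setting drawn except the normexp background correction, where they stand at 0.17 and 0.66.

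Within a group the same array was often the highest or the lowest for many members. Among the AAV-hGRβ arrays, replicate 2 was the lowest for 18 of the 22 mitotic genes tested and replicate 1 the highest for 13. Among the AAV-GFP arrays, replicate 2 was the highest for 15 of the 22 and replicate 1 the lowest for 15. For DNA synthesis the order was another: AAV-hGRβ replicate 3 was the highest for 8 of 11 genes and replicate 1 the lowest for 6. Summed over the 22 mitotic genes, the level was 5.03 to 5.89 on the untreated arrays, 4.58, 9.29 and 5.35 on the AAV-GFP arrays and 22.1, 14.9 and 20.9 on the AAV-hGRβ arrays. Over the 11 genes of DNA synthesis it was 30.7 to 34.1, 27.6 to 34.7 and 35.7 to 44.1, a sum that the brightest genes weigh on most. By the median log2 value of the 11 genes, AAV-hGRβ replicate 1, at 1.17, lay below AAV-GFP replicates 2 and 3, at 1.26 and 1.38. The share of gene spots well above background ran from 54.0% (untreated replicate 3) to 82.0% (AAV-hGRβ replicate 1), and its part in these differences was not tested.

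Some markers of immune cells were also higher on the AAV-hGRβ arrays. Of 16 T and NK cell markers tested, 4 were called higher than in AAV-GFP livers (Cd8a, Gzma, Gzmb and Nkg7, by at least 12.6-fold for Cd8a) and none lower, with a median log2 difference of 1.45. Their summed level was 4.21 to 5.95 on the untreated, 5.47 to 7.03 on the AAV-GFP and 8.72 to 16.3 on the AAV-hGRβ arrays, of which replicate 2 was the lowest. The fold of Cd8a is a lower bound, because its AAV-GFP signal was too dim. How each cell marker passed the filter is not given here, and any that passed through AAV-hGRβ alone had to lie higher there. Against either control, the counts, medians and summed level of the T and NK cell markers are therefore no support for a direction. Of the defining markers, Cd3e differed by 0.018 ± 0.46 and Cd3d by 1.88 ± 0.55 (SE; adjusted p = 0.21). Of the 16, 15 lay above AAV-GFP and 1 below it, Zap70, at -0.29. Against untreated livers 14 lay above 0 and 2 below. Cd8b1 was the lowest of them there, at -0.30, and stood at -0.31 in AAV-GFP against untreated livers. Among 10 macrophage and Kupffer cell markers 1 was called higher (Mpeg1), beside 0.822% of all genes. The summed level over 9 of the 10 was 87.9 to 111 on the untreated, 90.0 to 149 on the AAV-GFP and 221 to 281 on the AAV-hGRβ arrays. The median log2 difference of the 10 was 0.59, and by the median log2 value of the 9 the groups overlapped, with AAV-hGRβ replicate 1 at 1.78 and AAV-GFP replicates 2 and 3 both at 2.09. No marker of B and plasma cells (7 tested), neutrophils and monocytes (8), dendritic cells (6) or erythroid precursors (5) was called against AAV-GFP, with medians of 0.58, 1.27, 0.94 and 0.10. Against untreated livers 6 T and NK cell, 3 macrophage and 1 neutrophil or monocyte markers were called higher, beside 2.5% of all genes. No B and plasma cell, dendritic cell or erythroid marker was called there. All 9 hepatocyte markers tested lay below AAV-GFP, none called, with a median of -0.27. Against untreated livers 4 of the 9 lay above 0 and 5 below, with a median of -0.063, and 1 was called lower. AAV-GFP itself lay above untreated for 7 of the 9, with a median of 0.25. None of 5 cholangiocyte, 6 endothelial and 6 stellate cell markers or of 3 markers of fetal or regenerating hepatocytes passed against AAV-GFP. Of the last, 2 of the 3 lay below AAV-GFP, with a median of -0.26 and the lowest, H19, at -0.72. Afp, a fetal plasma protein, lay 1.00 ± 0.30 above AAV-GFP and 1.54 ± 0.30 (SE; adjusted p = 0.0365) above untreated. Against untreated livers the median of the 3 was 1.35, with H19 at -0.35. The part of these cells in the result was not tested, and in whole-liver RNA more dividing cells and more RNA per cell cannot be told apart.

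Lists beyond the members cover the rest of the cycle machinery. Of 53 further mitosis genes tested (71 listed), 5 were called higher than in AAV-GFP livers (9.43%, beside 0.822% of all genes) and none lower, and the median was 1.06, beside 0.022 over all genes tested. Of the 53, 14 passed the filter through AAV-hGRβ alone and had to lie higher there, Ckap2l among them, so the counts and medians of the list are no support for a direction. The 5 are the spindle protein Psrc1 at 3.26 ± 0.47 (SE; adjusted p = 0.0195), the kinetochore subunit Nuf2 at 2.00 ± 0.33 (SE; adjusted p = 0.0329), the spindle protein Spag5 at 1.71 ± 0.26 (SE; adjusted p = 0.0228), Cdca5 (sororin), which protects cohesion, at 1.64 ± 0.27 (SE; adjusted p = 0.032), and Ckap2l, at least 2.99-fold higher (adjusted p = 0.0299; means -3.15 and -5.15). Against untreated livers 19 of the 53 were called higher (35.8%, beside 2.5% of all genes), none lower, with a median of 1.42, beside 0.093 over all genes. They are these 5 genes and Ckap2, Knstrn, Pbk, Esco2, Dlgap5, Sgo2a, Shcbp1, Ncapg, Sgo1, Cdca3, Kif18a, Ncapg2, Cenph and Ect2. Of the 19, 9 passed the filter through AAV-hGRβ alone (Ckap2l, Ckap2, Knstrn, Pbk, Esco2, Dlgap5, Sgo2a, Kif18a and Cenph). The difference among them ran from 1.42 ± 0.30 (Ect2, which sets the cleavage furrow) to 3.75 ± 0.47 (Psrc1). For Knstrn, Ckap2l, Dlgap5, Sgo2a and Kif18a, not well above background on any untreated array, it is known only as at least 2.51, 3.01, 1.75, 2.98 and 2.02-fold. Of 49 further replication genes tested (51 listed), which code for origin, helicase, polymerase and chromatin assembly factors, 1 was called higher (2.04%), with a median of 0.17. It is Uhrf1, which keeps methylation at the fork, at 1.58 ± 0.24 (SE; adjusted p = 0.0242). Against untreated livers 2 were called, Uhrf1 (1.78 ± 0.24) and Wdhd1, a factor of the replisome, at 1.15 ± 0.21 (SE; adjusted p = 0.0301), 4.08% of the list, with a median of 0.34. These shares stand near those of all genes and are not a result about the list. Among 15 genes of the response to damage in S phase, Fanci, at 1.57 ± 0.16 (SE; adjusted p = 0.00501), and Fanca, at 1.32 ± 0.24 (SE; adjusted p = 0.0429), both of the Fanconi pathway, were called against AAV-GFP (13.3%), with a median of 0.87 over the list. Of the 15, 2 passed the filter through AAV-hGRβ alone and had to lie higher there, Hells and Rad54l, the highest of the list at 1.85. The median is therefore no support for a direction. Against untreated livers the genes called included Fanci (1.38 ± 0.16), Exo1, a DNA exonuclease (1.83 ± 0.30), and Mdm2, the p53 inhibitor (2.24 ± 0.40). Under normexp the differences of Ckap2l, Spag5, Uhrf1, Fanci and Fanca from AAV-GFP turned below 0, and Psrc1 shrank to 0.70, Nuf2 to 0.097 and Cdca5 to 0.58.

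An inhibitor of the cycle was among the genes that rose. Of 33 inhibitors and transcriptional regulators tested, 1 was called against AAV-GFP (3.03%, beside 0.822% of all genes called higher). A single call is not a result about the list. The gene is Cdkn1a, the p21 inhibitor of cyclin kinases and a p53 target. It lay at -0.34 ± 0.62 (SD, n = 3) in AAV-hGRβ and -2.74 ± 0.47 in AAV-GFP livers, a difference of 2.40 ± 0.39 (SE; adjusted p = 0.0303). Against untreated livers, at -3.48 ± 0.55, it was 3.14 ± 0.39 (SE; adjusted p = 0.0066). In that comparison 2 more regulators were called (9.09% of the list in all, beside 2.5% of all genes called higher). They are Ccng1, another p53 target, at 1.80 ± 0.26 (SE; adjusted p = 0.0116), and Rbl1 (p107), a pocket protein, at 1.38 ± 0.25 (SE; adjusted p = 0.03). Under normexp Cdkn1a shrank to 0.80 against AAV-GFP and 1.05 against untreated and Rbl1 to 0.30, while Ccng1 was 2.02 against untreated. Ccng1 also lay 1.24 ± 0.26 (SE; adjusted p = 0.0761) above AAV-GFP, without passing. The other inhibitors and factors did not pass: Cdkn1b (p27) differed from AAV-GFP by -0.21 ± 0.25, Cdkn1c (p57) by -0.25 ± 0.22, Rb1 by -0.041 ± 0.15, Myc by 0.83 ± 0.30 (SE; adjusted p = 0.318) and E2f8, a repressor of the family, by -0.26 ± 0.48. E2f7 was not tested. The median of the 33 genes was 0.070, beside 0.022 over all genes tested.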

How the data were processed

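RNA (500 ng a sample) was hybridised to 9 single-colour Agilent arrays, 3 a group, grouped by the sample titles. The deposited array files hold the spot intensity that Agilent Feature Extraction 9.5 wrote, background-subtracted (gProcessedSignal) and not normalized between arrays, per the file headers. The series table was used as an alternative. Its values are the same intensities, not logged, and differed from them by 0 at most on every array. It gave the same results as the array files and is no independent check.

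From these, log2(gProcessedSignal) minus each array's 75th percentile was taken, spots marked as outliers were left out, and spots of a probe were averaged. Probes entered the test if every array of some group had them well above background, and each gene was represented by its brightest probe (highest mean). One limma 3.58.1 fit (lmFit and eBayes, R 4.3.3) of the 9 arrays (6 residual degrees of freedom) gave the 3 comparisons, with Benjamini-Hochberg adjustment over 16792 genes and a threshold of 0.05. The number of arrays limits the precision.

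Old array symbols were brought to current ones through accessions (22951 probes), symbols (6659), older symbols (3109) or identifiers (294), and 8161 kept the file's name. The members and lists were chosen with earlier results of these data known. Named genes were all members, with full values for those called, and from the wider lists those called in a comparison and a few inhibitors and factors whatever their p, except an item that is not reported here. Further probes of a gene are given for some members. Promoter motifs were searched in Python 3.11.15. Alternatives changed the background correction (normexp, offset 50), scaling, filter, probe rule, variance model, arrays fitted, scan day, slide and replicate number. Of these, the filter through a control group alone and the removal of single high spots were chosen after seeing the data. The fit was tested on simulated data.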

Additional observations from a re-analysis of the deposited data

How the results depend on the processing

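Under the normexp background correction 18 genes passed against AAV-GFP (151 in the fit reported) and 49 against untreated (551), with no member called, 0 in both. There the mitotic minus the DNA synthesis median turned to -0.49 and -0.17. With bright local backgrounds replaced first it was 0.62 and 0.77, with 10 members called against AAV-GFP and 883 genes against untreated. Under normexp 14 of 41 members lay below AAV-GFP and 11 below untreated. With bright local backgrounds replaced first, 1 lay below AAV-GFP and 2 below untreated. Among the genes called, normexp turned Bub1b (-0.68), Ccnb1 (-0.076), Ckap2l (-0.65), Spag5 (-0.17), Uhrf1 (-0.068), Fanci (-0.20) and Fanca (-0.33) against AAV-GFP. Against untreated it turned Bub1b (-0.48), Aurkb (-0.46), Ckap2l (-0.39), Fanci (-0.072), Kif18a (-0.49), Wdhd1 (-0.067), Cenph (-0.37), Exo1 (-0.14), Sgo2a (-0.37), Dlgap5 (-0.46) and Knstrn (-0.42). With bright local backgrounds replaced before the correction, Bub1b stood at 0.32 and Ccnb1 at 0.93 against AAV-GFP. Against untreated, Bub1b then stood at 0.47 and Aurkb at 0.69. The cause was not tested, and no alternative other than plain normexp turned a called gene.

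Against AAV-GFP, median scaling gave 95 genes and 0 members, quantile normalization 1 member, no filter 30 genes and 0 members, an intensity trend 12 members, the 2 groups alone 75 genes and 0 members, scan day as a block 258 genes and 10 members, and slide as a random block 76 genes and 1 member. Against untreated, quantile normalization gave 8 members, no filter 84 genes and 0 members, the trend 1040 genes, the 2 groups alone 307 genes, scan day 1264 genes and slide 59 genes and 0 members. Between AAV-GFP and untreated livers, median scaling gave 4 genes, quantile normalization 1 and scan day 1, and the difference between the class medians was -0.24 within scan day 2. Median scaling moved the median of all genes to -0.32 against AAV-GFP and -0.24 against untreated, and 35 of 41 members stayed above 0 against AAV-GFP.

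Leaving out 1 array at a time gave 40 to 165 genes and 0 to 11 members against AAV-GFP, 94 to 2040 genes and 0 to 19 members against untreated, and 0 to 1 genes between the controls. The class difference then ran from 1.09 to 1.63, from 1.17 to 1.50 and from -0.0048 to 0.30. With the replicate number as a block, 2 genes and 0 members passed against AAV-GFP and 1 gene and 0 members against untreated. Deviations of same-numbered arrays correlated between -0.32 and 0.012 across scan days, and at 0.078 and 0.24 within a day. Number and day are mixed, so this cannot show whether the numbers pair the samples. With probes well above background in a control group, a filter chosen after seeing the data, 8 and 14 members were called, and 6 and 16 without the single high spots of Bub1 and Nusap1.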
